A study of Homo sapiens with 32 samples.

Results

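The genes described here were 9 Notch pathway genes, taken as the receptors NOTCH1, NOTCH2 and NOTCH3, the ligands JAG1 and JAG2, the nuclear proteins MAML1 and RBPJ, and the targets HES1 and HEY1. A peak was counted for a gene when it overlapped the RefSeq gene body (GRCh38.p14) by at least 1 bp. Of 20037 protein-coding genes, 13420 held a peak in at least 1 library, and so did 8 of the 9 Notch genes. These 8 held 402 of the 474004 peaks in the 16 lists, 242 in 786-O and 160 in RPTEC.

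Notch signalling passes between touching cells. A ligand of the Jagged or Delta-like family on one cell binds a NOTCH receptor on the next, proteases then cut the receptor, and its intracellular domain enters the nucleus. There it joins the DNA-binding protein RBPJ and a Mastermind coactivator such as MAML1, and the complex switches on target genes of the HES and HEY families, which encode transcriptional repressors. In the kidney the pathway is known for patterning the nephron, with a part in forming the proximal tubule. N6-methyladenosine (m6A) is a methyl mark on adenosines of RNA, laid down by an enzyme complex around METTL3 and most often found near stop codons and at sites of the sequence type GGAC followed by A, C or T.

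The lists came from MeRIP-seq, in which fragmented RNA is pulled down with an antibody to m6A and sequenced beside its input. The study asked whether m6A moves when SETD2, the enzyme that trimethylates histone H3 at lysine 36, is lost. The cells were 786-O, a clear cell renal cell carcinoma line grown in RPMI1640 with serum, and RPTEC, proximal tubule epithelial cells immortalized with hTERT and grown in DMEM/F12 with a supplement kit and serum. All were labelled as untreated. Each gave 4 lines: the SETD2 WT parent, the CRISPR clones SETD2KO-1 and SETD2KO-2, and SETD2KO-1R, which is SETD2KO-1 given back a full-length SETD2 with a FLAG tag. Each line had 2 replicate IP libraries, and nothing in the labels says that these came from separate cultures, so p-values measure the spread between libraries only. WT and SETD2KO-1R together are called SETD2-expressing below (4 libraries per cell line), against 4 SETD2KO libraries. Each knockout or rescue line is 1 clone, and the lists of the 2 cell lines carry different experiment names, so cell line and experiment cannot be told apart.

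The 786-O lists held between 25710 and 39670 peaks and the RPTEC lists between 19249 and 31207. The files hold peaks and no reads, so the depth of each library is unknown beyond a minimum stated in the study's methods. A missing peak does not separate unmethylated RNA from scarce RNA. In bulk RNA, fewer cells with a transcript and less of it per cell cannot be told apart either. SETD2 itself carried 8, 10, 7 and 9 peaks in the SETD2-expressing 786-O libraries and 5, 10, 5 and 4 in the knockouts, and 7, 10, 11 and 10 against 6, 4, 4 and 5 in RPTEC, so the knockouts overlapped the other libraries in 786-O and lay below them in RPTEC. Peaks on SETD2 RNA do not check whether the protein was lost. Among proximal tubule markers PAX8, KRT8, KRT18 and GGT1 had a peak in all 16 lists, LRP2, SLC34A1 and AQP1 had none, and CUBN and CDH16 had a peak in 1 and 3. The leukocyte gene PTPRC, the endothelial gene PECAM1 and the fibroblast gene DCN had no peak, while the endothelial gene CDH5 had 1 in each of the 4 SETD2-expressing RPTEC lists and in no other, and COL1A1 had one in 1 786-O and 6 RPTEC lists.

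Of the 9 genes 6 had peaks that overlapped a start window in at least 3 libraries of a cell line. Such a window runs from 250 bases upstream of a RefSeq start to 50 downstream. For NOTCH1, 1 of these peaks reached into the gene body, and for RBPJ the windows were at internal starts. The sequence just before the start is shown for 4 of them, the receptors NOTCH1 and NOTCH2, the ligand JAG1 and the target HES1, and not for MAML1 and RBPJ. The sequences are RefSeq's (GRCh38.p14), 250 bases upstream of the annotated start, written 5′ to 3′ on the strand of the gene. Capitals mark GGAC followed by A, C or T and the RBPJ binding sequence GTGGGAA, searched on both strands, and no marked stretch overlaps another here.
NOTCH1 (chr9:136546049-136546298, minus strand): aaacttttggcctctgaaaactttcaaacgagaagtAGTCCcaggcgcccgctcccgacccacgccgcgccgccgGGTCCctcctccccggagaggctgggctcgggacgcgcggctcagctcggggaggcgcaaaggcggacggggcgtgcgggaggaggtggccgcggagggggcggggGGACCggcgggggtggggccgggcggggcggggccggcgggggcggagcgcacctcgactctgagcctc
NOTCH2 (chr1:120069663-120069912, minus strand): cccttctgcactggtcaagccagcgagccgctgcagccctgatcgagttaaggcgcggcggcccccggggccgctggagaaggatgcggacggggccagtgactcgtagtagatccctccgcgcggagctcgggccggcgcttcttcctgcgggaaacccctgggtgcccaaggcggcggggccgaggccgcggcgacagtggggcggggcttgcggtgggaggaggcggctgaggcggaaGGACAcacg
JAG1 (chr20:10674000-10674249, minus strand): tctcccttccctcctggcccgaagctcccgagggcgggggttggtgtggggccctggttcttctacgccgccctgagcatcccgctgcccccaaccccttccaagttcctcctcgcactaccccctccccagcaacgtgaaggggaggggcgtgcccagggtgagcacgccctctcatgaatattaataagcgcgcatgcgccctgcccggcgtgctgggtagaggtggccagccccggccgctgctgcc
HES1 (chr3:194135898-194136147, plus strand): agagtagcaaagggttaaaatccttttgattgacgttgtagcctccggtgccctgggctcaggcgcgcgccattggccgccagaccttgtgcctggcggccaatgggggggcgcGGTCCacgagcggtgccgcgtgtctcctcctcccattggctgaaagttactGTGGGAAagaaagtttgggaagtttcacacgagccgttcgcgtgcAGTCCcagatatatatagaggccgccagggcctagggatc
The NOTCH1 stretch held 1 GGACC on the strand of the gene and 2 marked sites on the other. NOTCH2 held 1 GGACA close to its start and JAG1 held none. HES1 held 2 GGAC-type sites on the other strand and 1 GTGGGAA on its own, which begins 85 bases before the start. Among 22199 such stretches in the genome table, 53.2% held GGAC followed by A, C or T on the strand of the gene and 78.2% on either strand. GTGGGAA was in 2.89% on the strand of the gene and in 5.27% on either. These are matches of letters, and the peak lists carry no strand.

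Most of the Notch genes had a peak in every library. Of the 9, NOTCH1, NOTCH2, JAG1, MAML1 and RBPJ had a peak in all 16 libraries (55.6%), beside 23.1% of all protein-coding genes. HES1 had one in 15 libraries, JAG2 in 11 and HEY1 in 9. NOTCH3 had none, as did 33% of all protein-coding genes. NOTCH1 led with 104 peaks, followed by NOTCH2 with 87, MAML1 with 79, RBPJ with 55, HES1 with 29, JAG1 with 26, JAG2 with 13 and HEY1 with 9. Per length the order changed: the short HES1 gene (2585 bp) carried 7.01 peaks per 10 kb and library, HEY1 1.497, NOTCH1 1.26, MAML1 1.11, JAG1 0.447, NOTCH2 0.344, JAG2 0.292 and RBPJ (329683 bp) 0.104.

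**Figure D1:**
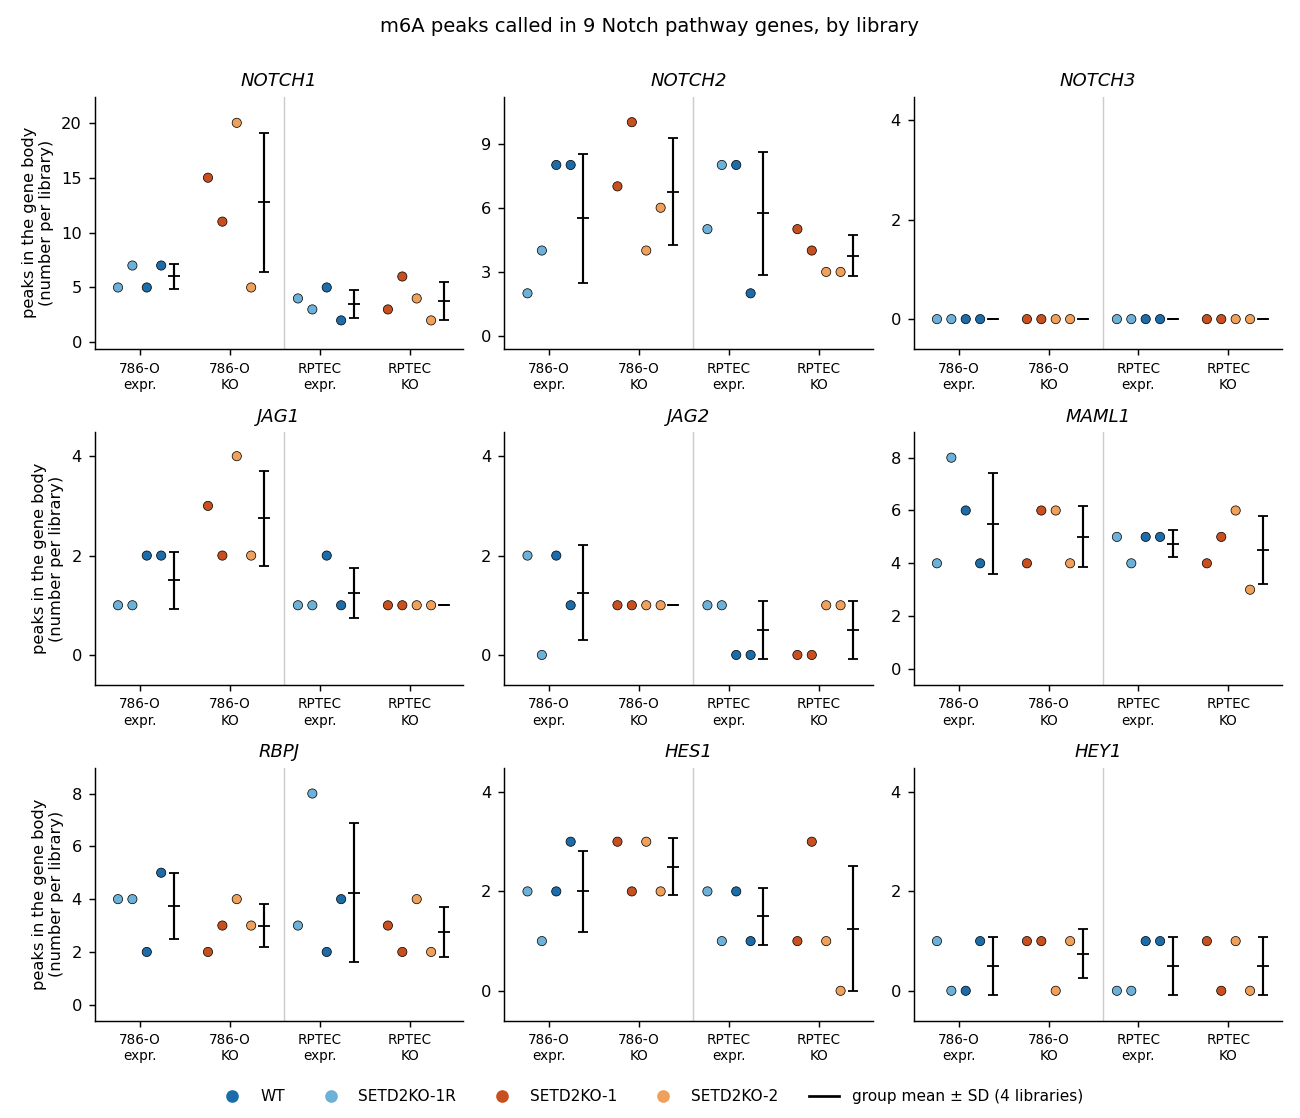
Number of peaks in the body of each of the 9 genes (y axis) in every IP library, grouped on the x axis by cell line and SETD2 status, where expr. is WT and SETD2KO-1R and KO is SETD2KO-1 and SETD2KO-2, with the mean ± SD of 4 libraries beside each group. NOTCH1 reached 20 peaks in a 786-O knockout library and no more than 6 in any RPTEC library, and NOTCH3 was at 0 in all 16.

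NOTCH1, the receptor on chromosome 9 (chr9:136494433-136546048, minus strand), had the largest difference in mean peak number between the cell lines among the 9 genes. In 786-O it held 5 and 7 peaks in the WT libraries, 5 and 7 in SETD2KO-1R, 15 and 11 in SETD2KO-1, and 20 and 5 in SETD2KO-2. In RPTEC it held 5 and 2, 4 and 3, 3 and 6, and 4 and 2 in the same order. Of the 786-O libraries 3 lay within the RPTEC range and 5 above it. The means were 9.38 ± 5.55 (SD, n = 8) and 3.63 ± 1.41 (n = 8), with an exact permutation p = 0.0028 and, adjusted over all 13420 genes, p = 0.0514, so the difference was not called. With the same number of top-scoring peaks taken from every list, the difference was 2.88 in place of 5.75 (exact permutation test, adjusted p = 0.346). In the same exact permutation test it was called with bp covered in place of peak number (adjusted p = 0.0473) and without 786-O WT replicate 1, SETD2KO-2 replicate 2, SETD2KO-1R replicate 1 or SETD2KO-1R replicate 2 (0.0286 to 0.0437). Averaged by line, the 4 786-O means (6 for WT, 6 for SETD2KO-1R, 13 for SETD2KO-1 and 12.5 for SETD2KO-2) lay above the 4 RPTEC means (3.5, 3.5, 4.5 and 3). NOTCH1 was the 1 Notch gene with such a gap, beside 7.37% of all genes with higher line means in 786-O and 2.76% with higher ones in RPTEC.

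The NOTCH1 peaks fell into 27 regions once the 16 lists were merged. A region of 2199 bp towards the 3′ end (chr9:136495629-136497827), with its median summit 2579.5 bp from the annotated end, was called in all 16 libraries. Of the other 26 regions, 15 were called in 786-O alone and 1 in RPTEC alone, beside 33481 and 21498 of all 99258 merged regions. Of the 27 regions 9 were called in 1 library, most of them in 786-O SETD2KO-2 replicate 1, whose list was the longest (39670 peaks). The peaks of 786-O were spread along the gene, with 22.7% of 75 summits in the last 10% of the gene body, where RPTEC had 48.3% of 29. Of these 75 peaks 51 came from the knockouts, 20 of them from SETD2KO-2 replicate 1, and 24 from the SETD2-expressing libraries. The 786-O share therefore rests largely on the knockouts. Regions in the middle of the gene, between chr9:136511334 and chr9:136526271, also overlap the lncRNA LOC124902310, and reads of the 2 genes cannot be separated in lists without strand.

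**Figure D2:**
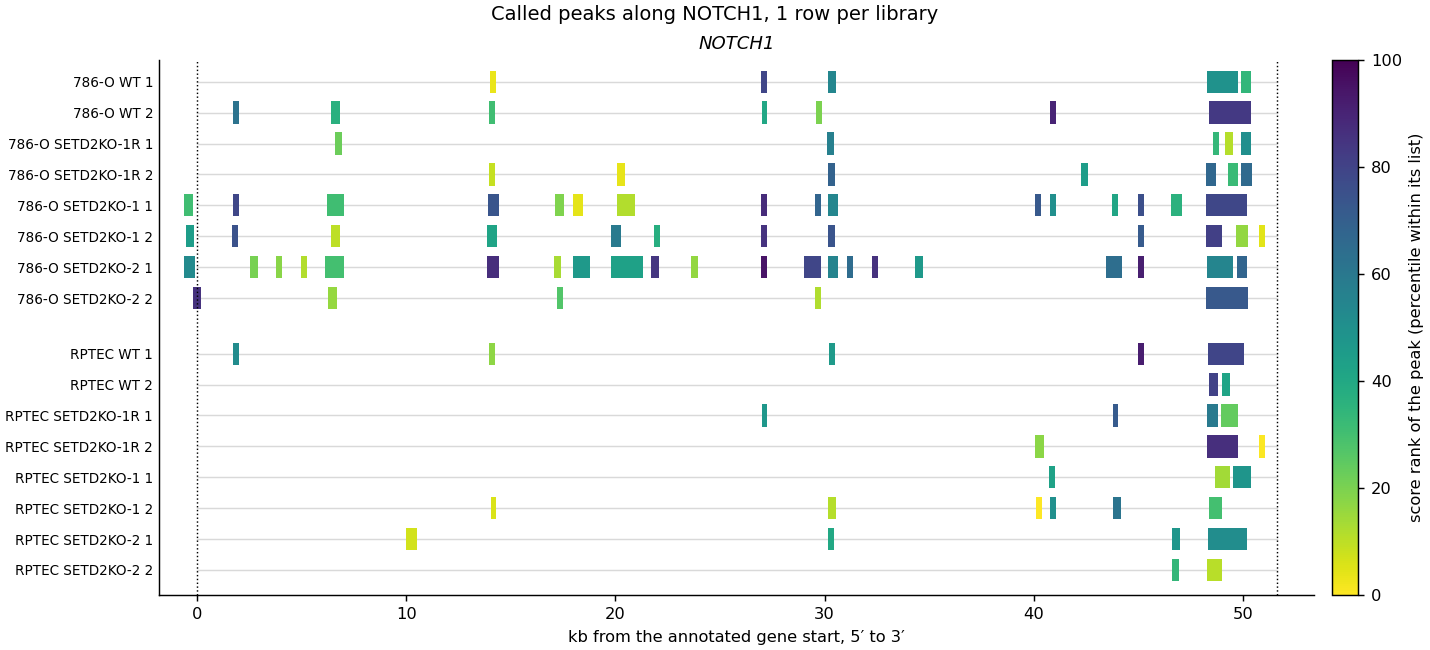
Peaks along NOTCH1 in each library (rows), drawn by distance from the annotated gene start in kb (x axis, dotted lines at the gene start and end) and coloured by the rank of the peak's score within its list, with peaks narrower than 0.4% of the gene drawn at that width. The 3′ block is present in every row, while peaks over or just before the start appear only in the 4 786-O knockout rows.

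Within 786-O the NOTCH1 count did not separate by SETD2 status. The knockouts averaged 12.8 ± 6.34 peaks (n = 4) and the SETD2-expressing libraries 6 ± 1.15 (n = 4), and SETD2KO-2 replicate 2, at 5, kept the groups overlapping (exact permutation p = 0.143, adjusted p = 1). Without that library, or with SETD2KO-1 alone as the knockouts, NOTCH1 separated. Smaller groups separate more easily, and the share of all genes that did so in these settings is not given here. The difference of 6.75 peaks ran from 4.33 without SETD2KO-2 replicate 1 to 9.33 without SETD2KO-2 replicate 2. Chromosome 9 as a whole held 6.06% ± 0.135 of the peaks in 786-O knockouts and 4.80% ± 0.272 in SETD2-expressing 786-O libraries (n = 4 each), with no overlap, and 4.47% ± 0.0576 and 4.45% ± 0.152 in RPTEC. Per 1000 peaks on chromosome 9, NOTCH1 had 5.92 ± 2.37 in the 786-O knockouts and 4.11 ± 1.35 in the SETD2-expressing libraries, which overlapped. The part of the chromosome in the NOTCH1 counts was not tested. In RPTEC the counts were 3.75 ± 1.71 and 3.5 ± 1.29. The SETD2KO effect was 6.5 peaks larger in 786-O than in RPTEC (exact permutation p = 0.133, adjusted p = 1).

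A merged region at the NOTCH1 start was called in the 786-O knockouts alone, although 1 of its 4 peaks touches the gene body. The region chr9:136545846-136546697, which spans the annotated start, was called in all 4 knockout libraries and in none of the 4 SETD2-expressing ones, nor in RPTEC. It was the 1 region of that kind among 66 Notch gene regions in 786-O (1.52%), beside 0.475% of all 78921 regions. No Notch gene region showed the opposite pattern, which 0.147% of all regions had. The count was 0 when a library had to cover at least 50% of the region, when the upper 50% of each list was used and when all lists were taken at the same length. In RPTEC 0 of 53 Notch gene regions followed either pattern, beside 0.263% and 0.212% of 68428 regions. The 4 peaks behind the NOTCH1 region were not alike. SETD2KO-2 replicate 2 had a peak whose summit lay 9 bases inside the gene, at the 85.8th percentile of its list, and which covered 203 bp of the gene body. In the other 3 knockout libraries the peak began 79, 167 and 187 bases upstream of the start, outside the gene body, with summits 103, 301 and 520 bases upstream, at percentiles 52.7, 44.8 and 30.8. All 4 peaks overlap the microRNA gene MIR4674, which lies 125 bases upstream. Further upstream the lncRNA NALT1 had a peak in 4 of 4 786-O knockouts, 2 of 4 SETD2-expressing 786-O libraries and no RPTEC library. Which transcript the start peaks belong to was not tested.

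NOTCH2, the second receptor (chr1:119911553-120069662, minus strand), did not differ between the cell lines beyond its spread. Its counts in 786-O were 8 and 8 in WT, 2 and 4 in SETD2KO-1R, 7 and 10 in SETD2KO-1, and 4 and 6 in SETD2KO-2. In RPTEC they were 8 and 2, 5 and 8, 5 and 4, and 3 and 3. The ranges overlapped throughout (6.13 ± 2.64 and 4.75 ± 2.25, n = 8 each, exact permutation test, adjusted p = 0.705). Its summits gathered at the 3′ end, where the last 10% of the gene body held 67.3% of them in 786-O and 57.9% in RPTEC. A pair of regions there, chr1:119914612-119915981 and chr1:119916236-119916943, were called in all 8 786-O libraries and in 7 and 5 of 8 RPTEC libraries. A region over the start (chr1:120069430-120069837) was called in 3 786-O and 4 RPTEC libraries, always high in its list, between the 83.2nd and the 97.7th percentile. The NOTCH2NL genes are near-identical copies of the 5′ part of NOTCH2, and how reads with several matches were treated is not given in the sources used here. NOTCH2NLA had a peak in 8 786-O and 3 RPTEC libraries and NOTCH2NLC in 6 and 7, so calls near the NOTCH2 start are uncertain as to gene.

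NOTCH3 (chr19:15159038-15200995), the receptor known from vascular smooth muscle, was without a peak in every library, start window included. Whether its RNA was present at all is not something the lists can show.

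JAG1, a ligand of the Jagged family (chr20:10637684-10673999, minus strand), had few peaks that ranked high. To compare scores between lists, each peak was given its percentile within its own list, since no source gives the unit of the score. The best JAG1 peak in SETD2-expressing 786-O libraries ranked at 92.3 and 94.4 in WT and 86.8 and 83.0 in SETD2KO-1R. In the 786-O knockouts it ranked at 97.3, 77.5, 96.8 and 96.8. In RPTEC it ranked at 96.1 and 71.6 in WT, 76.9 and 70.6 in SETD2KO-1R, and 64.1, 59.9, 18.8 and 41.2 in the knockouts. RPTEC WT replicate 1 lay within the 786-O range and the other 7 RPTEC libraries below it. The means were 90.6 ± 7.40 and 62.4 ± 23.5 (n = 8 each), and JAG1 was the 1 Notch gene called on this measure (exact permutation test, adjusted p = 0.0415), beside 3.82% of genes called higher in 786-O and 2.46% higher in RPTEC. In the exact permutation test the call was lost with peak midpoints (adjusted p = 0.170), with the upper 50% of each list (0.0622) and with lists of the same length (0.0971). It was also lost without any one of the 8 786-O libraries or the 4 RPTEC knockout libraries (0.0531 to 0.0882). By number of peaks JAG1 had 2.13 ± 0.991 and 1.13 ± 0.354 and was not called (exact permutation test, adjusted p = 0.197).

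The high JAG1 ranks came from its start. A region over it (chr20:10673756-10674163, median summit 25.5 bases upstream) was called in 5 786-O libraries, at percentiles from 92.3 to 97.3, and in RPTEC WT replicate 1 alone, at 96.1. The 786-O libraries without it were SETD2KO-1 replicate 2 and both SETD2KO-1R replicates. A second region (chr20:10639517-10640108), 2154.5 bp from the 3′ end of the gene, was called in all 16 libraries, with a median percentile of 78.0 in 786-O and 67.4 in RPTEC. JAG2 (chr14:105140995-105168776, minus strand), the other Jagged ligand, had 1 main region (chr14:105142548-105143369), also towards the 3′ end, called in 7 786-O and 4 RPTEC libraries. It had no peak over its start window. Its peak counts ranged from 0 to 2 in 786-O and from 0 to 1 in RPTEC.

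MAML1, the coactivator (chr5:179732822-179777283, plus strand), did not differ beyond its spread in number of peaks, with between 4 and 8 peaks in 786-O (median 5) and between 3 and 6 in RPTEC (median 5). Of its 12 regions 2 were called in all 16 libraries, chr5:179765052-179766658 and chr5:179773758-179774423, the second 3288.5 bp from the annotated end. Another, over the start (chr5:179732728-179733283), was called in 6 libraries of each cell line. The best MAML1 peak ranked at 83.6 ± 9.27 in 786-O and 69.7 ± 8.37 in RPTEC (exact permutation test, adjusted p = 0.0859), so it was not called. RBPJ (chr4:26105449-26435131, plus strand), the DNA-binding partner, had between 2 and 5 peaks in 786-O (median 3.5) and between 2 and 8 in RPTEC (median 3). A 3′ region (chr4:26430599-26431302) was called in 8 and 7 libraries, and a region at an internal start (chr4:26320644-26321065) in 7 and 3. RBPJ has 5 RefSeq start windows, of which the 2 at this region were covered by peaks and the other 3 were not.

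**Figure D3:**
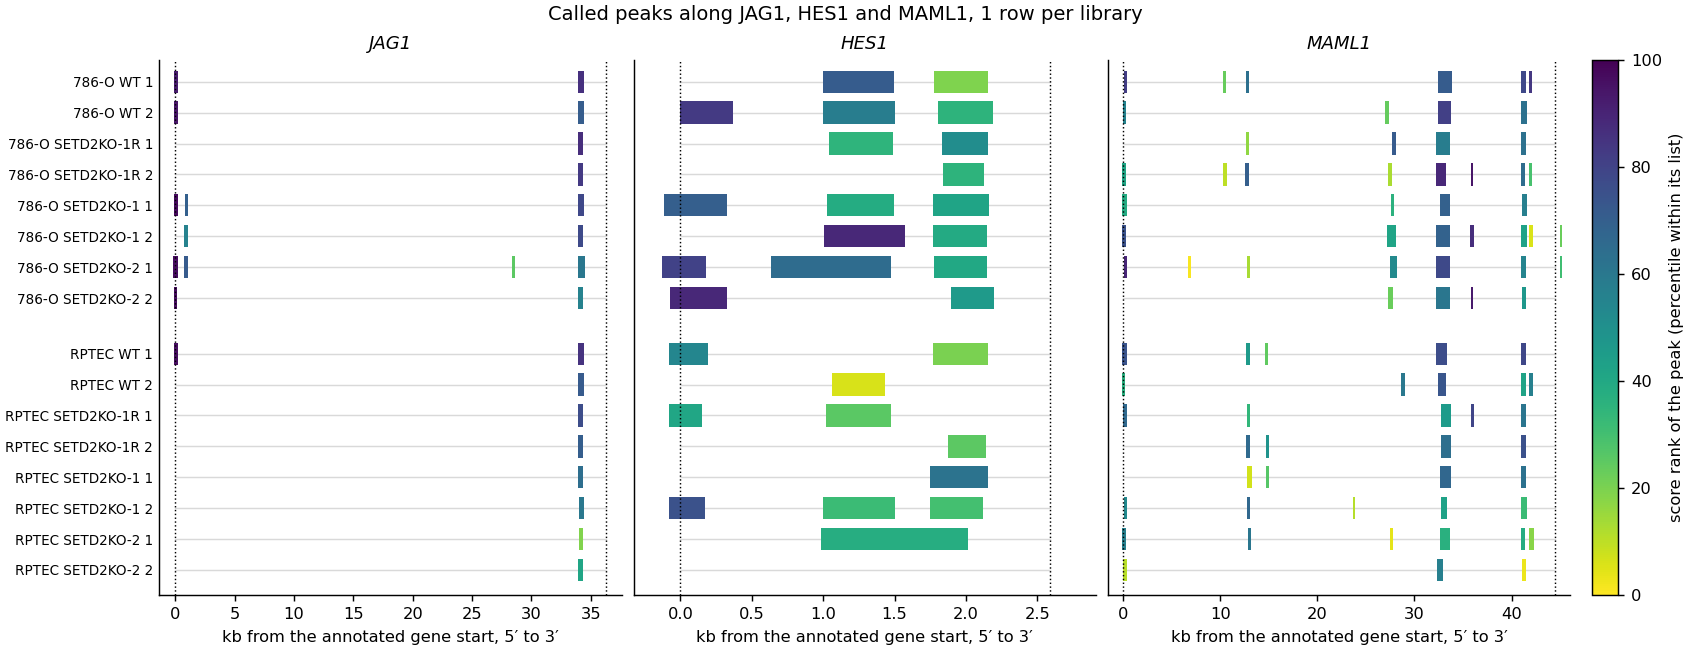
Peaks along JAG1, HES1 and MAML1 in each library (rows), by distance from the annotated gene start in kb (x axes, dotted lines at the gene start and end) and coloured by score rank within the list, with narrow peaks widened as in the plot of NOTCH1. JAG1 shows a 3′ block in all 16 rows and a start block in 5 786-O rows and 1 RPTEC row, and HES1 shows a start block in 4 and 3 rows and blocks along its body in all but 1 row.

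HES1, the repressor and classic Notch target (chr3:194136148-194138732, plus strand), had peaks at its start and along its body. In 786-O it had 2 and 3 peaks in WT, 2 and 1 in SETD2KO-1R, 3 and 2 in SETD2KO-1, and 3 and 2 in SETD2KO-2. In RPTEC it had 2 and 1, 2 and 1, 1 and 3, and 1 and 0. The best peak ranked from 35.2 to 88.8 in 786-O and from 6.14 to 74.7 in the 7 RPTEC libraries with a peak, and the means with the empty library at 0 were 71.1 ± 19.0 and 37.6 ± 26.2 (n = 8 each, exact permutation test, adjusted p = 0.110). The start region (chr3:194136020-194136519) was called in 4 786-O and 3 RPTEC libraries. HEY1, the related repressor, had at most 1 peak in any library, in 5 of 8 786-O and 4 of 8 RPTEC libraries.

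Over the 9 genes together, 0 were called by number of peaks between the cell lines, beside 3.44% of genes called higher in 786-O and 1.92% called higher in RPTEC. At an unadjusted exact permutation p of at most 0.05 there were 2 of 8, NOTCH1 and JAG1, beside 2424 of all 13420 genes. The median difference of the members was 0.75 peaks, against 0.25 for all genes tested, and 7 of the 8 tested members were higher in 786-O, as were 64.2% of all genes. The 786-O lists were also longer, with a median of 32377.5 peaks against 26754, and at the same length the MAML1 and HEY1 differences changed sign (to -0.125 and -0.25). The members with a peak and a RefSeq start window were 7. A start window (250 bases upstream to 50 downstream) was overlapped by a peak in at least 4 of 8 786-O libraries for 5 of these, HES1, JAG1, MAML1, NOTCH1 and RBPJ, beside 22.4% of genes with a peak. NOTCH1 counts through peaks of which 1 reached into its gene body, and RBPJ through 2 of its 5 windows. In RPTEC this held for 2, MAML1 and NOTCH2, beside 15.6%. The last 10% of the gene body held 36.7% of the members' summits in 786-O and 42.9% in RPTEC, where all genes with a known strand had 19.6% and 21.0%. Of 76 merged regions in the members, 4 were called in all 16 libraries (5.26%, against 4.25% of 99258 regions) and 21 in 1 library (27.6%, against 37.2%).

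SETD2 status did not separate the number of peaks in any of the 9 genes. In 786-O, 0 members had knockout and SETD2-expressing counts without overlap, beside 1.52% of genes higher and 0.901% lower in the knockouts. In RPTEC, 0 members did, beside 1.01% higher and 1.41% lower. With 4 libraries against 4 the smallest exact permutation p is 0.0286, and 0 genes were called after adjustment in either cell line, although 301 and 295 were at an unadjusted p of at most 0.05. The regions seen in at least 2 knockouts and no SETD2-expressing library numbered 10 of 66 in 786-O (15.2%, beside 6.55% of all regions). Of these 6 lay in NOTCH1, 2 in NOTCH2, 1 in JAG1 and 1 in HEY1. Regions of 1 gene are not separate observations. Chromosome 9, which holds NOTCH1, also had a larger share of the peaks in the 786-O knockouts (6.06% against 4.80%). Its part in this count was not tested. The reverse pattern, at least 2 SETD2-expressing libraries and no knockout, held for 2 of 66 (beside 4.2%), 1 in NOTCH2 and 1 in MAML1. In RPTEC the numbers were 2 of 53 (beside 4.9%), both in NOTCH1, and 2 of 53 (beside 5.84%), both in NOTCH2.

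**Figure D4:**
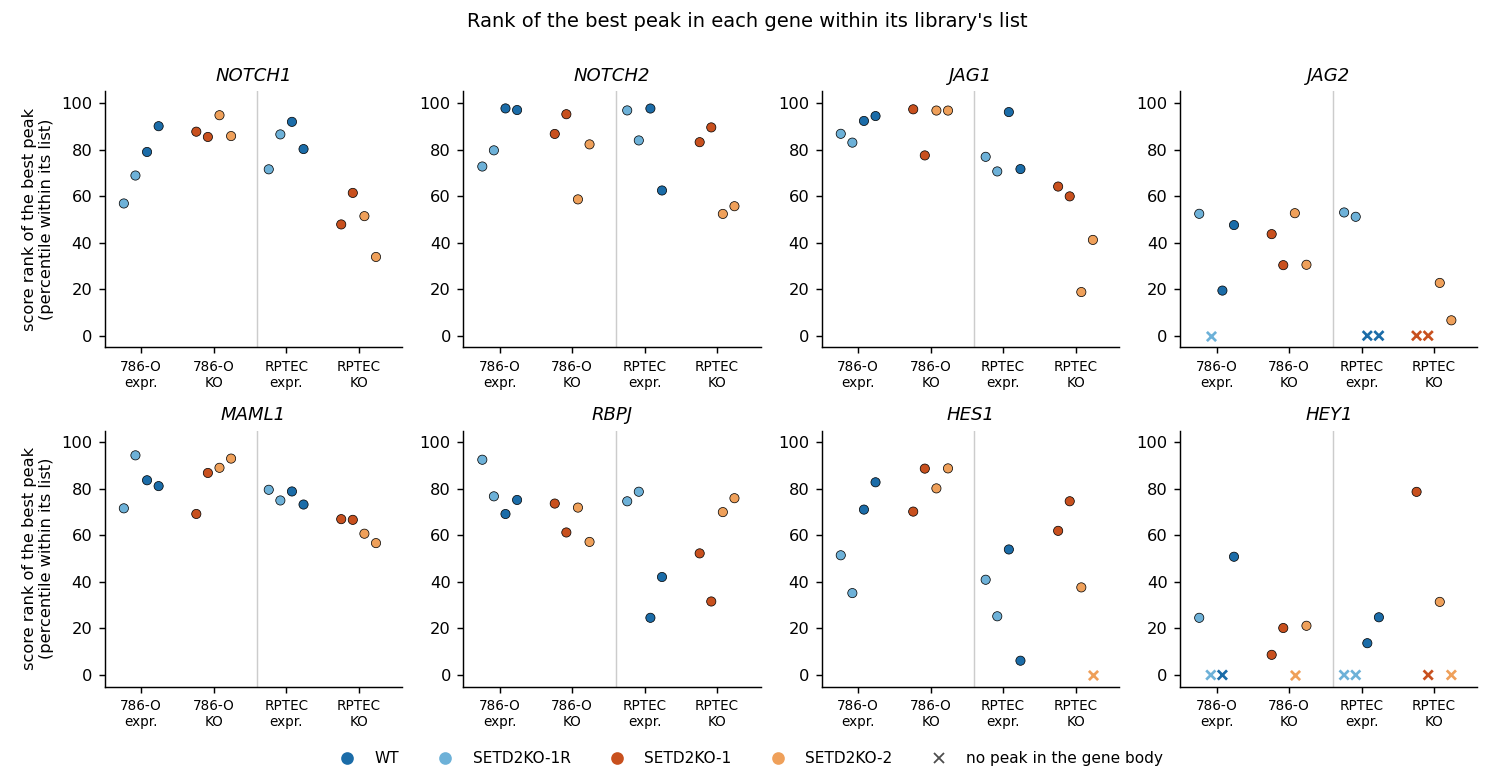
Score rank of the best peak in each gene (y axis, percentile within the library's own list), by cell line and SETD2 status as in the plot of peak numbers, with a cross at 0 where the gene had no peak. In RPTEC the 4 knockout points of NOTCH1, JAG1 and MAML1 lie below the 4 SETD2-expressing points.

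The rank of the best peak did separate by SETD2 status for some members in RPTEC. The best NOTCH1 peak ranked at 91.9 and 80.2 in WT and 71.5 and 86.5 in SETD2KO-1R, against 47.8, 61.4, 51.4 and 33.9 in the knockouts. All 4 knockout libraries were below all 4 SETD2-expressing ones, as they were for JAG1 above. For MAML1 the best peak ranked between 73.3 and 79.6 in the SETD2-expressing libraries and between 56.7 and 67.0 in the knockouts. The means were 48.6 ± 11.4 against 82.6 ± 8.77 for NOTCH1, 46.0 ± 20.7 against 78.8 ± 11.9 for JAG1, and 62.8 ± 4.98 against 76.7 ± 3.04 for MAML1 (n = 4 each, exact permutation p = 0.0286 for each gene, the smallest possible, adjusted p = 0.700). These were 3 of 8 members with a peak in RPTEC (37.5%), beside 2.09% of genes lower and 1.99% higher in the knockouts. In 786-O 0 members separated in either direction, beside 2.61% higher and 2.07% lower in the knockouts. With lists of the same length the count was 2 (beside 1.38% of genes), as JAG1 no longer separated. Of the 5 markers of other cell types, CDH5 split the same way, with 1 peak in each SETD2-expressing RPTEC library and 0 in each knockout (exact permutation p = 0.0286, adjusted p = 1), COL1A1 overlapped, and PTPRC, PECAM1 and DCN were at 0 in all 16 lists. The part of such cells in the ranks was not tested. The measure was chosen after the values were seen, and the 3 genes were read from the same 8 libraries.

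The regions called in every library of a cell line place these ranks along the gene, and are no separate evidence, since in RPTEC the region's rank is the best-peak rank itself in 7 of 8 libraries for JAG1 and 4 of 8 for NOTCH1. Of the members' regions 8 of 66 in 786-O (12.1%, beside 9.7% of all regions) and 4 of 53 in RPTEC (7.55%, beside 8.18%) were called in all 8 libraries of that cell line. In RPTEC the NOTCH1 3′ region ranked at 79.7 and 80.2 in WT, 59.1 and 86.5 in SETD2KO-1R, and 47.8, 29.9, 51.4 and 10.6 in the knockouts. The JAG1 3′ region ranked at 85.2 and 71.6, 76.9 and 70.6, and 64.1, 59.9, 18.8 and 41.2. Both separated without overlap. The 2 MAML1 regions overlapped, at 50.7 ± 13.8 against 64.9 ± 14.1 and at 33.9 ± 24.6 against 64.3 ± 16.6 (n = 4 each). Among all 5597 RPTEC regions called in all 8 libraries, 1.66% ranked lower and 1.57% higher in the knockouts without overlap. In 786-O the NOTCH1 3′ region did not separate (75.1 ± 5.99 in the knockouts, 62.6 ± 15.9 in the others) and neither did JAG1 (68.0 ± 11.6 and 81.7 ± 7.42). The MAML1 region chr5:179773759-179774408 was lower in the 786-O knockouts, at 57.2, 42.2, 55.0 and 47.2 against 78.5, 62.7, 62.9 and 65.0, the 1 of 8 members' regions that separated there, beside 1.93% of 7654 regions lower and 1.76% higher.

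Beyond the 9 genes, the Fringe and Mastermind families held the pathway genes called between the cell lines. Of 44 further Notch genes, 33 had a peak in at least 1 library, and 4 were called by number of peaks, 2 higher in 786-O (beside 3.44% of all genes) and 2 higher in RPTEC (beside 1.92%). The Fringe enzymes LFNG and MFNG, which add sugars to NOTCH receptors and so tune their response to ligands, were higher in 786-O. LFNG had 4, 4, 3 and 3 peaks in SETD2-expressing 786-O libraries, 4, 4, 7 and 2 in the knockouts, and 1 in every RPTEC library but SETD2KO-1 replicate 1, which had 0. All 786-O libraries were above all RPTEC libraries (3.88 ± 1.46 against 0.875 ± 0.354, n = 8 each, exact permutation test, adjusted p = 0.00831). MFNG had from 2 to 8 peaks in 786-O (median 4) and was called in 2 RPTEC libraries, SETD2KO-1 replicate 2 and SETD2KO-2 replicate 1, with 2 peaks each (4.38 ± 1.92 against 0.5 ± 0.926, exact permutation test, adjusted p = 0.0187). The third Fringe gene, RFNG, had 1.13 ± 0.641 and 0.5 ± 0.756 peaks and was not called (n = 8 each, exact permutation test, adjusted p = 0.544).

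The Mastermind paralogs of MAML1 went the other way. MAML2 had from 4 to 8 peaks in 786-O (median 6.5) and from 9 to 16 in RPTEC (median 12.5), without overlap (6.25 ± 1.58 against 12.5 ± 2.56, n = 8 each, exact permutation test, adjusted p = 0.00831). MAML3 had at most 2 peaks in 786-O, and none in 5 of 8 libraries, against 3 to 10 in RPTEC (0.5 ± 0.756 against 5 ± 2.45, exact permutation test, adjusted p = 0.00831). MAML1 itself differed by 0.625 peaks (exact permutation test, adjusted p = 0.824). On the rank of the best peak MFNG was again called higher in 786-O (adjusted p = 0.0314, exact permutation test) and MAML3 higher in RPTEC (adjusted p = 0.0233), while LFNG and MAML2 were not called (0.154 and 0.0955).

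**Figure D5:**
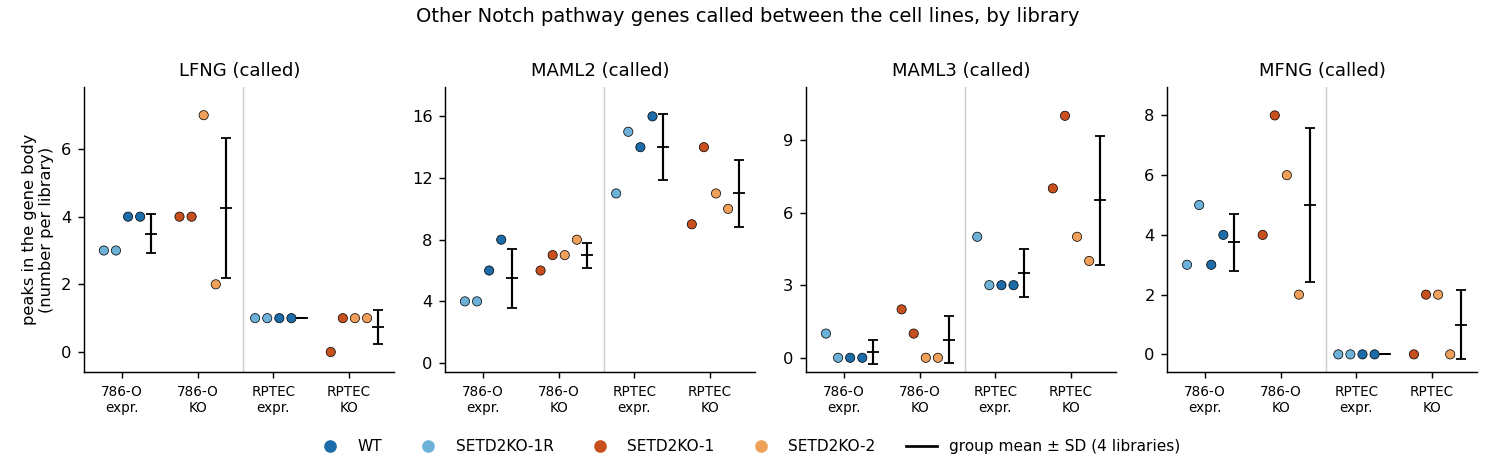
Number of peaks (y axis) per library for the 4 further Notch pathway genes called between the cell lines, grouped as in the plot of the 9 genes, with the mean ± SD of 4 libraries. LFNG and MFNG sit higher in 786-O, and MAML2 and MAML3 sit higher in RPTEC.

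Other large differences were not called. The Deltex ubiquitin ligase DTX2 had 6.13 ± 2.23 peaks in 786-O and 2.75 ± 1.67 in RPTEC (n = 8 each, exact permutation test, adjusted p = 0.0813), the Numb relative NUMBL 3.88 ± 1.46 and 2.13 ± 1.25 (0.220), and POFUT1, the enzyme that puts fucose on NOTCH, 3.25 ± 1.28 and 1.88 ± 0.641 (0.211). Among the 5 further ligands only DLK2 had a peak, in 5 786-O and 8 RPTEC libraries, while DLL1, DLL3, DLL4 and DLK1 had none, nor did the receptor NOTCH4. Of the 8 further targets HES4 had a peak in all 16 libraries, and HES5 and HEYL had none. By SETD2 status 0 of the further genes separated without overlap in number of peaks, of 31 tested in 786-O (beside 1.52% higher and 0.901% lower in the knockouts among all genes) and 32 in RPTEC (beside 1.01% and 1.41%), a count near the background.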

How the data were processed

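MeRIP-seq IP libraries of 8 lines, with 2 replicates each, were available as 16 peak lists. Per the study's methods and the submitters' processing notes, RNA extracted with Trizol was made into libraries with a stranded total RNA kit (SMARTer, Pico input), reads were aligned to hg38 with STAR, counted with HTSeq and normalized to an E. coli RNA spike-in, and MACS2 called peaks in each IP library against its input at a q-value threshold of 0.05. The authors deposited each peak with a score whose scale is not given in the sources used here, so it was used only as a percentile rank within its own list. The lists hold no reads, so the counting intervals are unknown, as is the depth of each library beyond the minimum that the methods state.

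Peaks were assigned to RefSeq gene bodies of GRCh38.p14, the same build, by an overlap of at least 1 bp. Overlapping peaks were merged into regions, over all 16 lists or within a cell line. The number of peaks per gene and the rank of its best peak (0 with no peak) were compared by two-sided exact permutation tests for every protein-coding gene with a peak, with Benjamini-Hochberg adjustment over all of them and calls at an adjusted p of at most 0.05. For SETD2 status, groups that did not overlap were counted. The procedure was tested on simulated data. Tests ran in SciPy 1.17.1 and NumPy 2.4.6 under Python 3.11.15, tables were handled in pandas 2.3.3, and figures were drawn with Matplotlib 3.10.9. The members, the lists of 44 further pathway genes and the markers were chosen with earlier results of these data known. All 9 members are named, as are further genes called between the cell lines, the 4 with the largest other difference in mean peaks, and SETD2, except that 1 of these 4 is not reported here. Further genes without a peak, and DLK2, HES4 and RFNG, were named after their values were seen. Alternatives changed the overlap rule, the part and length of the lists, the measure, the merging and the libraries used. Line means, best ranks by SETD2 status and the rule of at least 2 libraries were added after seeing the data.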

Additional observations from a re-analysis of the deposited data

Results flagged for a closer look

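In 3 of 30 groups of 4 libraries, 1 library stood apart from the other 3 in its number of peaks by a rule that chance meets in about 1 of 20 groups of continuous values. These are small whole numbers with ties, for which that rate does not hold, and each of the 3 libraries differs from the others by 1 peak, so no excess over chance is read from them. JAG1 had 2 peaks in RPTEC WT replicate 1 and 1 in each other SETD2-expressing RPTEC library, and the extra peak was the one over the JAG1 start. MAML1 had 4 peaks in RPTEC SETD2KO-1R replicate 2 and 5 in each of the others of that group. HEY1 had 0 peaks in 786-O SETD2KO-2 replicate 1 and 1 in each other 786-O knockout library.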

How the results depend on the processing

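Between the cell lines, 0 members were called by number of peaks. With bp covered there was 1 (NOTCH1, 2861 bp more in 786-O, exact permutation test, adjusted p = 0.0473), and leaving out single libraries gave 0 to 1. By best rank 1 was called (JAG1). This became 0 with peak midpoints, the upper 50% of each list or lists of the same length, and 0 to 1 without single libraries. Directions that reversed, all uncalled, were RBPJ peaks with the upper 50% (0.625), without 786-O WT replicate 1 or SETD2KO-1 replicate 1 (0.0714 each) and without RPTEC SETD2KO-1R replicate 2 (0.518), in a range of -0.357 to 0.518 over single libraries left out. MAML1 and HEY1 peaks reversed with lists of the same length (-0.125 and -0.25) and per 10000 peaks (-0.116 and -0.00841). The JAG2 best rank reversed with lists of the same length (-3.36) and HEY1 without RPTEC SETD2KO-1 replicate 1 (5.69, in a range of -7.92 to 5.69). The causes were not tested.

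By SETD2 status, 0 members separated in number of peaks, and 1 did in 786-O with SETD2KO-1 alone (leaving out single libraries gave 0 to 1). In RPTEC 1 did with the upper 50% of each list. The shares of all genes for peak number in these settings are not given here, so no excess is read from these counts. Smaller groups separate more often. By best rank 8.14% of genes were higher and 5.98% lower in the 786-O knockouts with SETD2KO-1 alone, against 2.61% and 2.07% with all 4. By best rank the 786-O count of 0 became 1 without WT replicate 1 (lower in the knockouts, beside 3.16% of genes), WT replicate 2 (higher, 4.3%) or SETD2KO-1 replicate 2 (higher, 3.68%). It was also 1 with WT alone as the SETD2-expressing side (lower, 9.88%) and with SETD2KO-2 alone as the knockouts (higher, 7.43%). The RPTEC count lower in the knockouts was 3 without any single library (beside 3.13% to 4.48% of genes) and 2 with lists of the same length (1.38%). With SETD2KO-2 alone as the knockouts it was 4 (8.16%). With SETD2KO-1 alone it was 3 (5.72%), and 1 member was higher in the knockouts (7.05%). Of 786-O regions 1 was specific to the knockouts. This was 0 with cover of at least 50%, the upper 50% or lists of the same length, 6 when all but at most 1 library sufficed, 5 with SETD2KO-1 alone, 2 with SETD2KO-2 alone and 1 to 3 without single libraries. In the other direction it was 0, and 1 with WT alone as the SETD2-expressing side. With at least 2 libraries on a side and none on the other, the counts were 10 and 2 in 786-O and 2 and 2 in RPTEC. Of RPTEC regions 0 were specific, with 1 in each direction for SETD2KO-1 alone, 1 for SETD2KO-2 alone and 0 to 1 without single libraries. Looser rules let more of all regions pass as well. Their shares are given above for the main rule and the rule of at least 2 libraries alone. No excess is read from the region counts of the other settings.

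Replicate numbers did not pair libraries, since 1 of 6 pairs in each cell line correlated above 0.1. With the replicate number as a block, 0 members were called by peaks (NOTCH1, exact permutation test, adjusted p = 0.0767) and 1 by best rank (JAG1, 0.0392). By SETD2 status the block allows no exact p below 0.0556 and called 0 members. Without read counts, a peak missing at low depth cannot be told apart from a peak that is absent, and all ranks are relative to each list.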
